A study of Mus musculus with 2 samples.

Results

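De novo lipogenesis, the pathway that builds fatty acids from acetyl-CoA, was examined here as 10 genes in the gastrocnemius (GAS) muscle of mice with and without a deletion of *Gde5* in skeletal muscle. The genes, listed for their role in the pathway and matched to probes by gene name or alias, were Srebf1, Acly, Me1, Acaca, Acacb, Fasn, Elovl6, Scd1, Scd2 and Thrsp. The list was chosen with earlier results of these data known. All 10 genes were found among the 27591 named genes of the arrays, with 17 probes. Of these probes 12, standing for 9 of the genes, were bright enough to be compared. Both genotypes were hybridized together to each of 2 two-colour Agilent arrays of the mouse transcriptome. WT RNA carried the dye Cy3 on array 1 and Cy5 on array 2, and *Gde5* skKO RNA carried the other dye. The mice were males of 15 weeks on a normal diet, from a C57BL/6 line with loxP sites around exon 11 of *Gde5*, and in *Gde5* skKO mice Cre is driven by the human skeletal actin promoter (HSA-Cre), which acts in muscle fibres and leaves the gene intact in the fat, nerve and vessel cells of the same muscle. For its glucose, fasting and contraction experiments the study used floxed littermates (*Gde5* flox/flox) as controls, while for the arrays the labels and the methods say only WT. The design names 5 mice of each genotype but gives neither a pooling of their RNA nor whether array 2 repeats the RNA of array 1. The study describes array comparisons of muscle both after a glucose injection and in fasting, and the labels do not say which of these conditions the present arrays hold. The comparison is therefore of 2 hybridizations and holds no test across mice.

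The pathway starts with citrate that has left the mitochondria. ATP-citrate lyase (Acly) splits it into acetyl-CoA, acetyl-CoA carboxylase makes malonyl-CoA, and fatty acid synthase (Fasn) joins these units into palmitate with NADPH that malic enzyme (Me1) helps to supply. Elovl6 lengthens palmitate to stearate, and the desaturases Scd1 and Scd2 give the saturated chains a double bond. Insulin and carbohydrate feeding raise the transcription of these genes through SREBP-1c, a product of Srebf1, and ChREBP, the product of Mlxipl. Liver and adipose tissue carry most of the flux in mammals, and in muscle malonyl-CoA is known above all as an inhibitor of fatty acid entry into mitochondria.

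Each spot gives a log2 ratio of *Gde5* skKO over WT, and a gene was called higher or lower where the p-value of the scanner software, Feature Extraction, was under 0.05 on both arrays with the same direction. This p-value, and the SE given beside a ratio, come from the error model of a hybridization and hold nothing of how mice vary. With 2 arrays, their number limits the precision. Among 13599 genes tested, 1.58% were called higher and 1.74% lower, and 1.59% passed the same threshold in the direction of the dyes, with neither array turned. The spots well above background made up 45.6% (array 1) and 47.4% (array 2) of those in WT muscle, and 53.2% and 44.6% in *Gde5* skKO muscle. *Gde5* itself (Gpcpd1, listed as Prei4) had 3 probes with log2 ratios from -3.29 to -2.59 over the arrays, of which the brightest in WT muscle went from 13392 to 2229 on array 1 and from 17840 to 1850 on array 2. The other probe, which is the brightest only when the *Gde5* skKO channel is averaged in, was at -0.05 and -0.47, past the threshold on array 2 alone. As the brightest probe stood for each gene, *Gde5* was read from this probe, and the rule did not call the deleted gene lower. The exon that each of these probes reads is not given in the sources used here. All 16 markers of fast and slow muscle were measured, with Acta1 at a mean log2 ratio of 0.17, Ckm at 0.01 and Myh4 at -0.20. The slow fibre genes Myl2 (0.84) and Tnni1 (0.67) were called higher, and the summed signal of the 16 genes was 825007 to 872727 in WT and 830268 to 912654 in *Gde5* skKO muscle.

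Fasn was lower in *Gde5* skKO muscle, and it was the only lipogenesis gene called in either direction. Its bright probe lies on the minus strand of chromosome 11 (mm8, 120623236 to 120623295). On array 1 its processed signal was 7365 in WT and 4394 in *Gde5* skKO muscle, and on array 2 it was 7965 and 4711. The *Gde5* skKO signal lay below the WT signal on both arrays, in either dye, as for 25.3% of all genes tested. The log2 ratio was -0.74 (SE 0.215) on array 1 and -0.76 (SE 0.216) on array 2, past the threshold on both. The mean, -0.75, is a signal 1.68-fold higher in WT muscle. With normexp background correction and loess normalization in limma, Fasn had a log2 ratio of -0.72 (95% interval -0.95 to -0.49, limma adjusted p = 0.0222 over all genes tested). The variance behind this interval is drawn by limma partly from all genes, so it is not the spread of Fasn alone. It rests on differences between 2 hybridizations, which may be technical. In RNA of a whole muscle, fewer cells of a type and less RNA per cell cannot be told apart.

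The other Fasn probe (chromosome 11, 120622442 to 120622501) was dim and differed between the arrays. Its signals were 34.4 in WT and 33.8 in *Gde5* skKO muscle on array 1, and 101 and 48.7 on array 2, for log2 ratios of -0.03 and -1.05. Only the *Gde5* skKO channel on array 1 and only the WT channel on array 2 were well above background, the Cy5 channel each time. The lower Fasn level therefore rests on 1 probe, and averaging both probes gave -0.65.

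**Figure D1:**
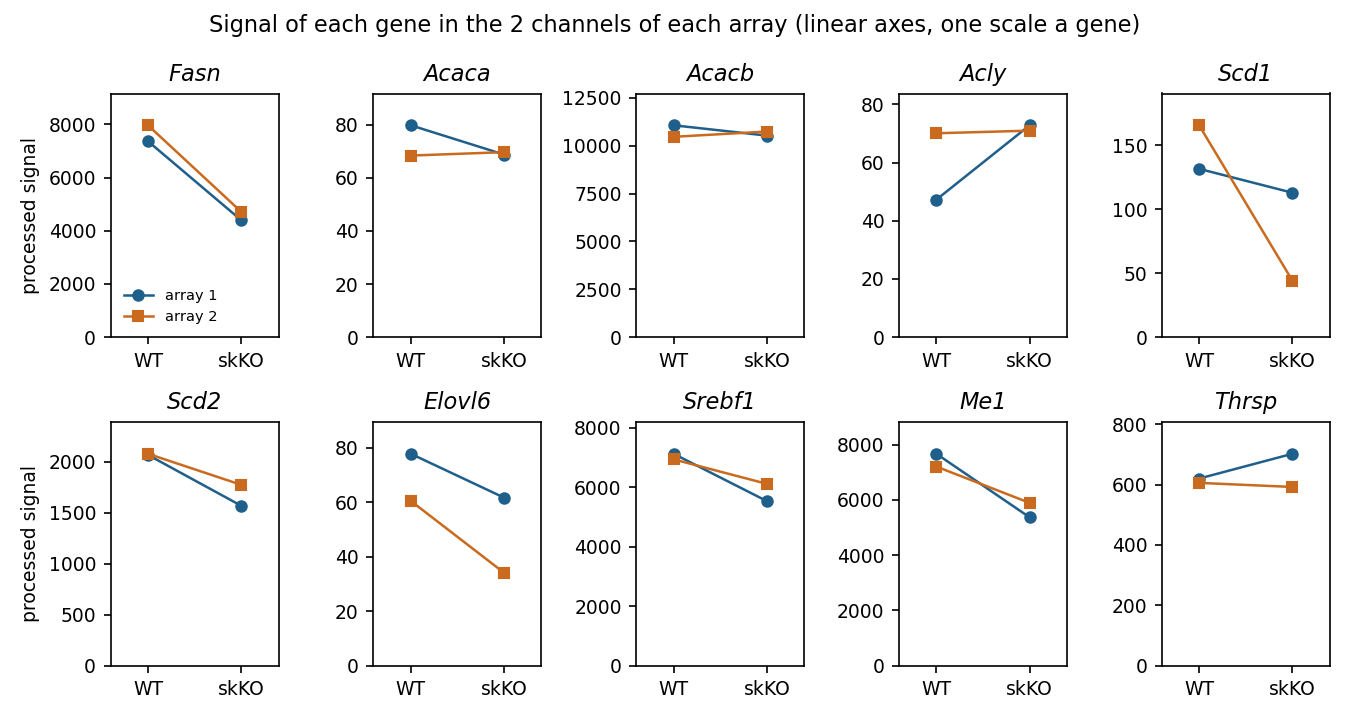
Processed signal (vertical axis, arbitrary units, from 0) of the brightest probe of each gene in the WT and *Gde5* skKO channels, with circles for array 1, squares for array 2 and a line joining the channels of an array. Fasn falls from 7365 to 4394 and from 7965 to 4711, while Acacb stays between 10461 and 11063 and Acaca, Acly and Elovl6 lie under 80 throughout.

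Srebf1, the transcription factor gene, and Me1, the NADPH source, were also dimmer in *Gde5* skKO muscle on both arrays but were not called. Srebf1 had signals of 7124 in WT and 5533 in *Gde5* skKO muscle on array 1, and 6936 and 6112 on array 2 (chromosome 11, 60015907 to 60015966, minus strand). The log2 ratios were -0.36 (SE 0.207) and -0.18 (SE 0.205), past the threshold on neither array. Me1, listed under its older name Mod1 on chromosome 9, had 2 bright probes. The brighter (86378398 to 86378458) went from 7670 to 5370 on array 1 and from 7207 to 5892 on array 2, with log2 ratios of -0.51 (SE 0.209) and -0.29 (SE 0.206). The other (86383141 to 86383200) went from 3239 to 2607 and from 3511 to 2606, with log2 ratios of -0.31 (SE 0.206) and -0.43 (SE 0.208). Both Me1 probes were lower on both arrays, the brighter past the threshold on array 1 alone and the other on array 2 alone. By limma, the log2 ratio was -0.41 (95% interval -0.65 to -0.16, adjusted p = 0.224) for Me1 and -0.29 (-0.52 to -0.06, adjusted p = 0.410) for Srebf1.

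Acly, which makes the acetyl-CoA, was near the detection limit. Its measured probe (chromosome 11, 100293293 to 100293351) had signals of 47.2 in WT and 72.8 in *Gde5* skKO muscle on array 1, and 70.1 and 71.0 on array 2. The log2 ratio was 0.62 (SE 0.312) on array 1, past the threshold, and 0.02 (SE 0.317) on array 2, so the higher value was seen on array 1 alone. The limma log2 ratio was 0.10 (95% interval -0.13 to 0.32), on signals raised by an offset of 50, which narrows the interval of a dim probe. The other Acly probe was not well above background in any channel.

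The acetyl-CoA carboxylase probes well above background on both arrays did not differ beyond the error of the spots. Acacb encodes ACC2, the form at the outer mitochondrial membrane that is characteristic of muscle. Its bright probe (chromosome 5, 114511625 to 114511685) had signals of 11063 in WT and 10525 in *Gde5* skKO muscle on array 1, and 10461 and 10736 on array 2. The groups overlapped, with log2 ratios of -0.07 and 0.04 and a limma ratio of -0.03 (95% interval -0.26 to 0.19). The dim Acacb probe was at -0.22 and -0.21, with signals from 67.5 to 88.6. Acaca encodes ACC1, the cytosolic form that feeds fatty acid synthase. Of its 4 probes only that at chromosome 11, 84217052 to 84217111, was well above background on both arrays, with signals of 79.8 in WT and 68.7 in *Gde5* skKO muscle on array 1, and 68.4 and 69.6 on array 2. Its log2 ratios were -0.21 (SE 0.315) and 0.03 (SE 0.358). The limma ratio was -0.03 (95% interval -0.26 to 0.20), with an interval narrowed by the offset as for Acly. The other 3 Acaca probes map across 1004 to 12416 bases of the genome and had signals under 60. That across 12416 bases was at -1.07 on array 1 and 1.12 on array 2, opposite directions from spots near background. Its value was past the threshold on array 2 alone.

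Among the enzymes that finish the chain, the bright Scd2 probe was lower on both arrays, while Scd1 and Elovl6 were too dim for a firm value. Scd2 (chromosome 19, 44359845 to 44359904) had signals of 2066 in WT and 1567 in *Gde5* skKO muscle on array 1, and 2077 and 1773 on array 2. Its log2 ratios were -0.40 (SE 0.207) and -0.23 (SE 0.205), past the threshold on neither array. By limma the ratio was -0.28 (95% interval -0.51 to -0.06, adjusted p = 0.417). Scd1 (chromosome 19, 44448208 to 44448267) had signals of 132 in WT and 113 in *Gde5* skKO muscle on array 1, and 166 and 44.2 on array 2. Its log2 ratios of -0.22 (SE 0.208) and -1.91 (SE 0.454) differed in size, that of array 2 alone was past the threshold, and the *Gde5* skKO channel was well above background on 1 of the 2 arrays. With limma, where an offset of 50 is added to every signal and draws the ratios of dim spots toward 0, the Scd1 ratio was -0.17 (95% interval -0.44 to 0.10). Elovl6 (chromosome 3, 129630352 to 129630411) had signals of 77.9 in WT and 61.7 in *Gde5* skKO muscle on array 1, and 60.5 and 34.1 on array 2. Neither channel of array 2 was well above background, so Elovl6 was not tested, and its log2 ratios were -0.33 (SE 0.387) and -0.83 (SE 0.638).

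Thrsp encodes Spot 14, a small protein of lipogenic tissues that thyroid hormone and carbohydrate induce. Its probe (chromosome 7, 97292244 to 97292303, minus strand) had signals of 620 in WT and 702 in *Gde5* skKO muscle on array 1, and 605 and 592 on array 2. Thrsp therefore overlapped between the genotypes, with log2 ratios of 0.18 and -0.03 and a limma ratio of 0.05 (95% interval -0.19 to 0.29).

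**Figure D2:**
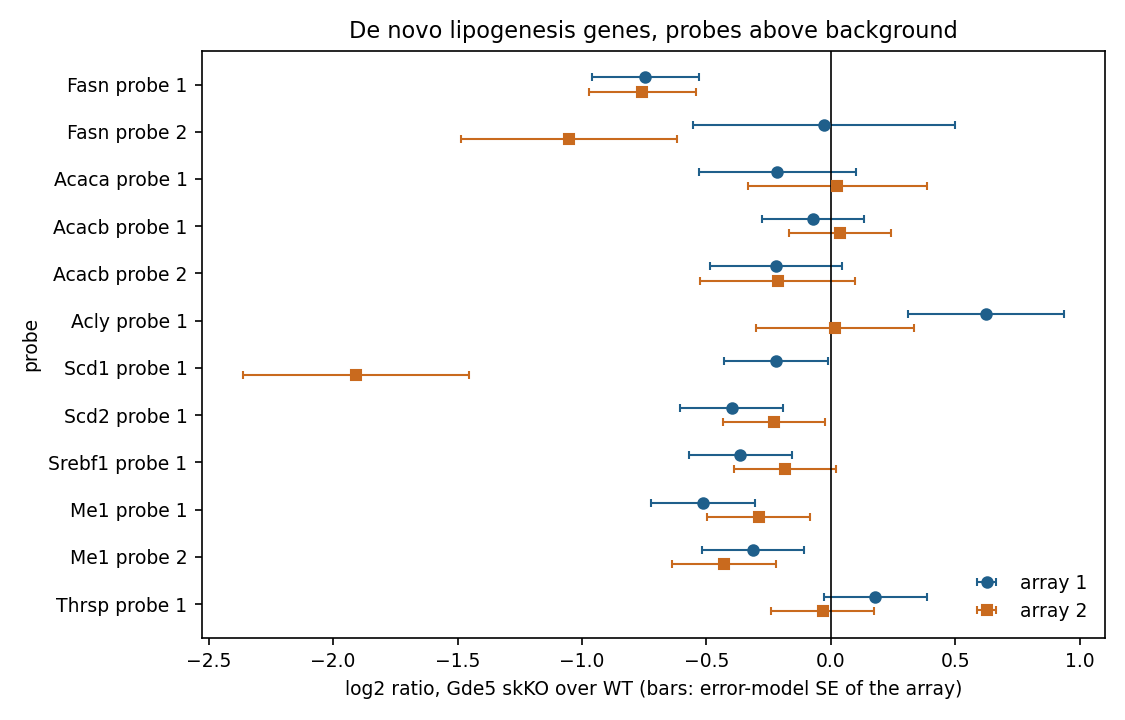
Log2 ratio of *Gde5* skKO over WT (horizontal axis) for each of the 12 probes above background, with circles for array 1, squares for array 2 and bars for the error-model SE of the array. Fasn probe 1 lies at -0.74 and -0.76, clear of 0 on both arrays, whereas the Scd1 values of -0.22 and -1.91 and the Acly values of 0.62 and 0.02 differ between the arrays.

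Across the 9 lipogenesis genes tested, 5 (Fasn, Scd1, Scd2, Srebf1 and Me1) were lower on both arrays with no threshold applied, against 25.3% of all genes tested. As the genes were chosen with earlier results of these data known, the shares given here are a description. Only Acly was higher on both arrays, against 29.1% of all genes, and Acaca, Acacb and Thrsp had opposite directions on the arrays. Scd1 was tested on array 2 through its WT channel alone, so its inclusion there required a high WT signal. The median of the 9 mean log2 ratios was -0.27, ranging from -1.06 for Scd1 to 0.32 for Acly, beside a median of 0.01 over all genes. On array 1 the median was -0.22, on array 2 -0.18 and with limma -0.17, beside 0.01, 0.02 and 0.00 over all genes. By Feature Extraction 1 of the 9 was called lower, against 1.74% of all genes, 0 higher, against 1.58%, and 0 in the direction of the dyes, against 1.59%. The moderated test of limma, before adjustment, had 4 genes under 0.05 that were lower and 0 that were higher, namely Fasn, Scd2, Srebf1 and Me1, where 4.27% of all genes were lower. After Benjamini-Hochberg adjustment Fasn alone was left, with 0.515% of all genes lower. The methods' t-test, before adjustment, called 2 of the 9 lower, Fasn and Me1, against 4.21% of all genes, and 0 after adjustment. A p-value over the threshold does not show that the other genes were alike in the genotypes. The intervals above give sizes under a variance that limma draws partly from all genes, and hold nothing of how mice vary.

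**Figure D3:**
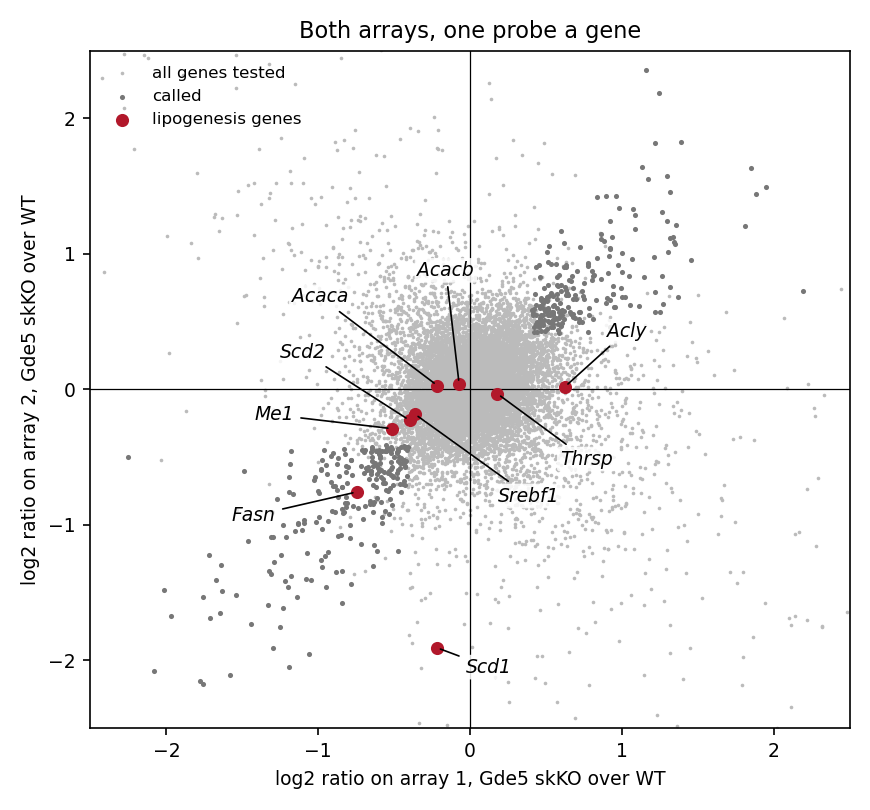
Log2 ratio of *Gde5* skKO over WT on array 1 (horizontal) and array 2 (vertical) for the 13599 genes tested, with called genes in dark grey and the 9 lipogenesis genes in red, and 40 genes beyond 2.5 on either axis not drawn. Fasn lies among the genes called lower, while Me1, Scd2 and Srebf1 lie nearer 0 in the same quadrant and Scd1 is low on array 2 alone.

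RefSeq start sites of the mouse assembly GRCm38.p6 gave 11 promoter windows for 8 of the 10 genes, 250 bases before to 50 bases after the start. They are shown for the called gene Fasn, for Me1 and Srebf1, which were lower without a call, and for Thrsp, whose values overlapped. The bases before the start are printed on the strand of the gene, 5′ to 3′, with every match to the letters CCAAT (NF-Y box) or GGGCGG (GC box) on either strand in capitals, and overlapping matches as 1 run. The Fasn bases are at chr11:120824548-120824797, those of Me1 at chr9:86695915-86696164, those of Srebf1, the last of its 3 start sites along the gene, at chr11:60210472-60210721, and those of Thrsp at chr7:97417551-97417800, all on the minus strand.
Fasn: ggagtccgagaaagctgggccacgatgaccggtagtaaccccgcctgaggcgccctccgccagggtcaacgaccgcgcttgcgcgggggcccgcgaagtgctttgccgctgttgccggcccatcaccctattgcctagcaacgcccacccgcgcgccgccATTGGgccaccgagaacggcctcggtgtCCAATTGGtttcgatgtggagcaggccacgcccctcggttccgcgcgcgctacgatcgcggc
Me1: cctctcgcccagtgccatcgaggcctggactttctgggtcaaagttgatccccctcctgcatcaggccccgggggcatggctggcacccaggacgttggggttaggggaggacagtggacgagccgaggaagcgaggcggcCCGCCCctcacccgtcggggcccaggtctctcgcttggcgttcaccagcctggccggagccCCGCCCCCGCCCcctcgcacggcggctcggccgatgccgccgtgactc
Srebf1: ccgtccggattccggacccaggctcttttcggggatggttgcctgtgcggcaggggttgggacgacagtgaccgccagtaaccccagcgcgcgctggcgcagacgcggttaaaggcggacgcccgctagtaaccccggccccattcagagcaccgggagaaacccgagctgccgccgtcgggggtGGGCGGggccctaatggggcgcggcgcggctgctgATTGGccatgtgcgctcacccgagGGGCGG
Thrsp: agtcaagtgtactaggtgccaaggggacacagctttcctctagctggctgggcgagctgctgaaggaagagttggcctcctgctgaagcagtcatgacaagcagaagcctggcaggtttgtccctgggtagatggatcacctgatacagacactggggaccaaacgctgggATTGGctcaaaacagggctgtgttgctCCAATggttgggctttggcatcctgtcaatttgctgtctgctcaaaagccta

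The Fasn window held 3 matches to CCAAT, at positions -90, -62 and -59 from the start, and the last pair overlap on opposite strands. Thrsp held matches at -79 and -52. The Me1 window printed in part above held 4 GC boxes, at -109, -48, -42 and 15, and no CCAAT. The box at 15 lies after the start, outside the bases printed. The window of the other Me1 start site held 1 CCAAT, at -208, and no GC box. That of Srebf1 held 1 CCAAT, at -30, and 2 GC boxes, at -65 and -6. Of 32851 windows of this length, 37.4% held CCAAT and 35.7% held GGGCGG, and among the 11 windows here 7 and 4 did. Neither the E-box CACGTG, held by 7.15% of all windows, nor the sterol element TCACNCCAC, held by 1.24%, was found in these 11, which says only that these letters are not in the windows. A match is a description of sequence, and CCAAT was found both in the window of Fasn and in that of Thrsp, whose signals overlapped between the genotypes.

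No gene of the lists around the pathway was called. For the counts below, 25.3% of all genes tested were lower and 29.1% higher on both arrays with no threshold. Of the 17 regulators of lipogenesis, all measured, 6 were lower and 3 higher on both arrays, and the median log2 ratio was -0.04. Mlxipl, which encodes ChREBP, had signals of 5399 in WT and 6720 in *Gde5* skKO muscle on array 1, and 6265 and 7657 on array 2, for a mean log2 ratio of 0.30. Its signals were thus higher in *Gde5* skKO muscle on both arrays, as for 29.1% of all genes tested. The ratio was past the threshold on neither array, and averaging all its probes gave 0.19. Its partner Mlx was at 0.10, and Srebf2, the SREBP gene of sterol synthesis, at -0.10. Of 11 measured genes of acetyl-CoA and NADPH supply and malonyl-CoA use, 0 were called, 5 were higher and 0 lower on both arrays, and the median was 0.16. The mitochondrial citrate carrier Slc25a1 was at -0.01, the acetyl-CoA synthetase Acss2 at 0.35 and the malate dehydrogenase Mdh1 at 0.10.

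Products of the pathway are lengthened, desaturated or stored by further enzymes, and these were not called either. Among 10 measured elongases, desaturases and their partners, 2 were higher and 0 lower on both arrays, with a median of 0.01, Elovl1 at 0.08, Elovl5 at -0.15 and Fads1 at -0.14. Of 14 genes of triglyceride synthesis, 0 were called. With no threshold 11 were higher and 1 lower on both arrays, against 29.1% and 25.3% of all genes, and the median was 0.21. The glycerol-3-phosphate acyltransferases Gpam, Gpat3 and Gpat4 were at 0.25, 0.43 and 0.12. Sterol synthesis, which shares the SREBP factors, had 20 measured genes with 7 higher and 4 lower on both arrays and a median of 0.07, with Hmgcs1 at -0.12 and Mvk at 0.07. Across these 5 lists 0 of 72 measured genes passed the Feature Extraction threshold on both arrays in 1 direction. Before adjustment limma had 4 higher (Mlxipl, Acss2, Me3 and Agpat3) and 1 lower, where 4.25% of all genes were higher, and 0 after adjustment. Me3 and Agpat3 are named with their values known.

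Fat cells within the muscle express Fasn and the other lipogenesis genes, and several of their markers were lower in *Gde5* skKO muscle. Of 15 measured adipocyte markers, 5 were called lower, namely the adipokine genes Adipoq (-0.97 on array 1 and -1.03 on array 2), Retn (mean -0.83) and Cfd (-0.90) and the lipid droplet genes Plin1 (-0.69) and Cidec (-0.70). Adipoq had signals of 824 in WT and 420 in *Gde5* skKO muscle on array 1, and 863 and 423 on array 2. Its mean log2 ratio by Feature Extraction was below that of Fasn. With limma the ratio was -0.76 for Adipoq and -0.72 for Fasn. The offset of 50 draws the ratio of the dimmer Adipoq probe toward 0 by more than that of Fasn (signals 4394 to 7965). Whether Adipoq and Fasn changed alike was therefore not tested by these limma ratios. The limma ratio was -0.82 for Cfd and -0.54 for Cidec. For the dimmer probes of Retn (signals 110 to 223) and Plin1 (142 to 248) it was -0.34 and -0.33. The limma offset draws the ratios of dim spots toward 0. Car3 (0.93, or 0.96 with limma) and Cidea (0.77, or 0.58 with limma) were called higher. Fabp4 (0.05), Plin4 (0.04) and Lipe (0.19) were not called, and Lep, Adrb3, Ucp1 and Acvr1c were not tested because their probes were too dim. The median over the list was 0.04, with 7 lower and 6 higher on both arrays, against 25.3% and 29.1% of all genes tested. Its summed signal was 128743 to 128947 in WT and 149831 to 151150 in *Gde5* skKO muscle, most of it from Fabp4, Plin4, Car3 and Lpl. Car3, called higher, was left out with its values known, while Cidea and the 5 markers called lower were kept. This gave 106821 to 107511 in WT and 107278 to 110818 in *Gde5* skKO muscle. The median was then -0.21, and leaving out a gene called higher lowers it by construction. The part of these markers in the lower Fasn signal was not tested.

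Liver, the other main lipogenic tissue, has markers that were lower too. Of 11 measured, 5 were called lower, the plasma protein genes Ahsg (-1.09), Fgg (-1.07), Mup1 (-0.97, or -0.44 over its 3 probes, of a family of near-identical genes), Rbp4 (-0.88) and Hp (-0.80), of which fat cells are known to express Rbp4 and Hp, and Apoh (0.81) was called higher. Alb (-0.66), Fgb (-0.11) and Hpx (-0.24) were not called, and 8 more, Ttr, Apoa1, Apoa2, Apoc3, Ambp, Fga, Serpina3k and F2, were too dim to be tested. The summed liver signal was 3775 to 3920 in WT and 2239 to 2372 in *Gde5* skKO muscle. Much of it came from 1 probe of Mup1, at 2008 to 2031 in WT and 1021 to 1042 in *Gde5* skKO muscle. On both arrays 8 markers were lower and 1 higher, against 25.3% and 29.1% of all genes tested. The median was -0.66, or -0.21 with limma. Schwann cells, which make fatty acids for myelin, had 0 of 10 measured markers called, with Pmp22 at -0.16 and Mbp at -0.06 and a summed signal of 7722 to 7987 in WT and 7002 to 7591 in *Gde5* skKO muscle. Of 9 skin and sebaceous markers on the arrays, 3 were measured and 0 called, with Krt1 at -0.31, Krt10 at -0.02 and Mgst1 at 0.01, and a summed signal of 4505 to 5323 in WT and 4245 to 5724 in *Gde5* skKO muscle. Whether RNA of any of these tissues takes part in the ratios of the lipogenesis genes was not tested.

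**Figure D4:**
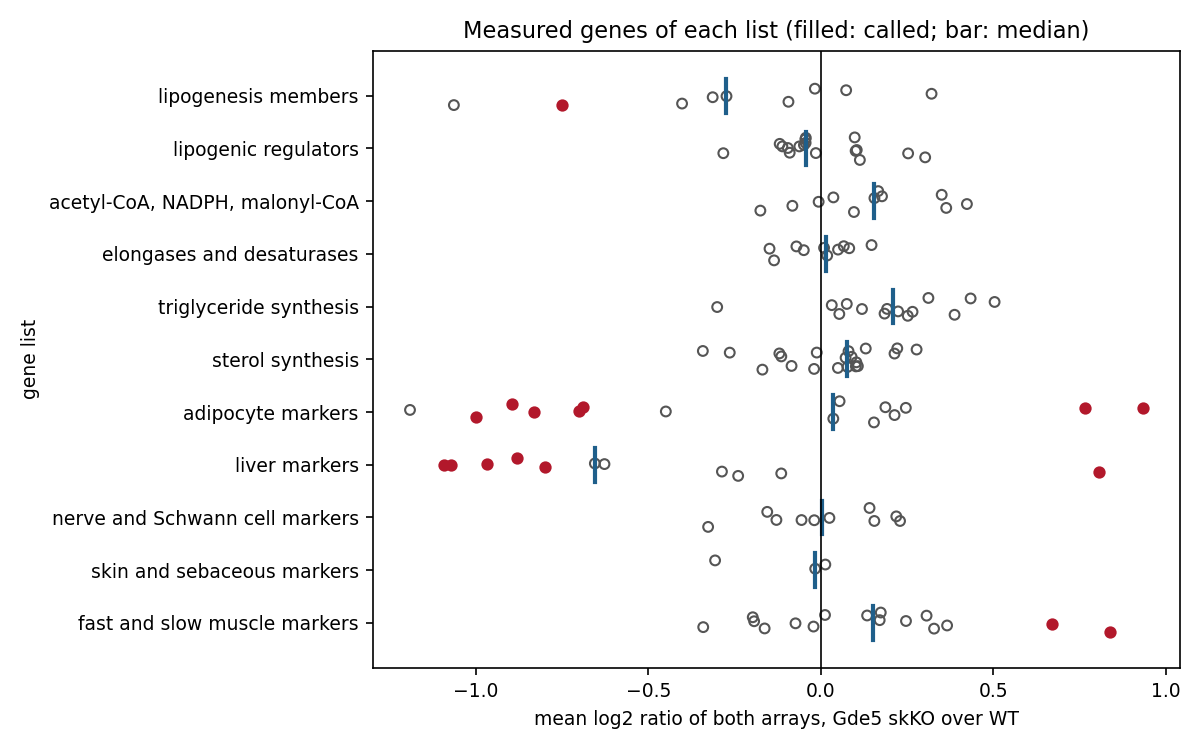
Mean log2 ratio of both arrays, *Gde5* skKO over WT (horizontal axis), for the measured genes of the lipogenesis genes and of 10 further lists, with filled points for called genes and a bar at each median. The lipogenesis median lies at -0.27 with Fasn filled at -0.75, the pathway lists below it have no filled point, and the adipocyte and liver lists each have 5 filled points under 0.

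Over 5 other ways of processing both arrays, each of the 9 genes tested kept the sign of its mean log2 ratio. Of these, the series table repeats the main ratio, and the probe brightest in the WT channel was the main probe of every gene. For Scd1, Scd2, Srebf1 and Thrsp, with 1 probe each, the mean over probes repeats it too. Their only separate alternatives were thus the loess versions. Fasn ranged from -0.75 to -0.65, Me1 from -0.41 to -0.39, Scd2 from -0.31 to -0.28, Srebf1 from -0.30 to -0.27 and Thrsp from 0.05 to 0.07. The dim probes of Scd1, at -1.06 to -0.17, and of Acly, at 0.05 to 0.32, moved by more. With limma Scd1 was at 0.01 on array 1 and -0.35 on array 2, so it was not lower on both. Acaca ranged from -0.13 to -0.02 and Acacb from -0.12 to -0.02, and both, like Thrsp, had opposite signs on the single arrays by Feature Extraction. With limma Acacb was at -0.06 on array 1 and -0.01 on array 2. By limma 5 genes were thus again lower on both arrays, with Acacb in place of Scd1.

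**Figure D5:**
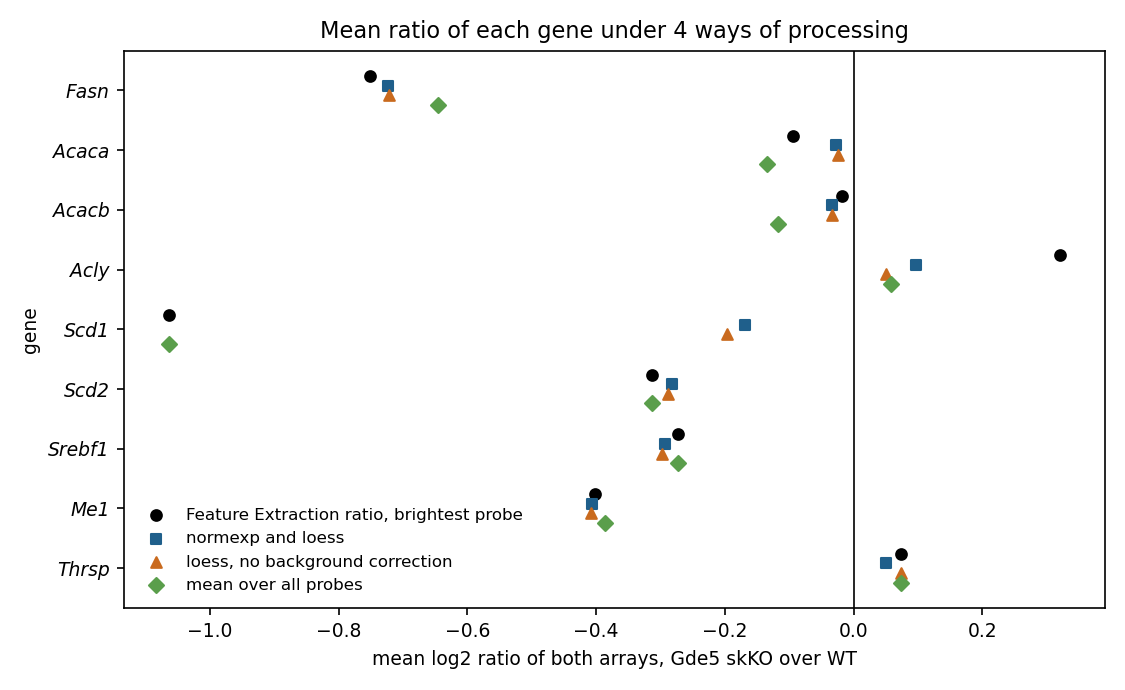
Mean log2 ratio, *Gde5* skKO over WT (horizontal axis), of the 9 lipogenesis genes tested under 4 ways of processing: Feature Extraction with the brightest probe, normexp and loess, loess without background correction, and the mean over all probes. Fasn lies between -0.75 and -0.65 under all 4, while Scd1 moves from -1.06 to -0.17 with normexp and loess, and Acly from 0.32 to 0.10.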

How the data were processed

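Total RNA of GAS muscle was labelled with Cy3 or Cy5 and hybridized to 2 arrays on 1 slide, read in 1 scan. The labels name QIAzol and the methods a lipid tissue kit for RNA isolation. Spots were quantified by the authors in Feature Extraction 9.5 (9.5.3.1 per the file headers). The deposited files hold log10 ratios, Cy5 divided by Cy3, corrected for background and dye, and a p-value that the error model of the array attaches to each. The deposited files also hold each spot's intensity and local background per channel. The series table deposited by the authors repeats the log10 ratio.

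Here ratios were put on the log2 scale with WT as the denominator on both arrays. Control spots and outlier spots (164 and 200 of 43379) were left out, as were 11 spots of array 1 whose local background was over 2 times their signal, which was decided with the values known. Probes were named through RefSeq tables, 24496 through an accession, 6234 through a symbol and 2386 through a synonym, and 8058 of 41174 kept the array's name. Probes listed as Fas (2) and Add1 (1), which are also symbols of other genes, were not counted as Fasn or Srebf1. Probe coordinates follow the array's annotation (mm8). Probes well above background in WT or *Gde5* skKO muscle on array 1 and again on array 2 passed the filter, and the brightest of them stood for its gene.

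The rule for named genes was all 10 genes with every probe, every called gene of 10 further lists and up to 3 genes of each list that were not called, in list order, besides *Gde5*. A few genes under this rule are not reported here. The lipogenesis genes and the lists were chosen with earlier results of these data known. Alternatives were limma 3.58.1 under R 4.3.3 (normexp with offset 50, loess), no background correction, the series table, an unpaired t-test named in the methods, p under 0.01, other filters and probe choices, and single arrays. Python 3.11.15 was used with pandas 2.3.3, numpy 2.4.6, matplotlib 3.10.9 and scipy 1.17.1, and the steps were tested on simulated data.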

Additional observations from a re-analysis of the deposited data

How the results depend on the processing

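Fasn was the 1 lipogenesis gene called lower, with 0 called higher, at p under 0.01, with no filter, where both channels had to be above background, with the probe brightest in the WT channel, with the mean over probes, and by limma's moderated test after adjustment. For Fasn the other filters and the WT-channel choice read the same bright probe, and the mean over probes kept the p-values of that probe. Those settings therefore could not test the Fasn call anew. With limma's unadjusted p 4 were lower, and with the methods' t-test 2 before and 0 after adjustment. With 1 array left out, 2 lipogenesis genes were called lower and 0 to 1 higher, Scd1 lower on array 2 alone, and Me1 lower and Acly higher on array 1 alone. Among all genes, 215 were called higher and 236 lower, 108 and 127 at p under 0.01, 578 and 581 with limma's unadjusted p, 39 and 70 after adjustment, 618 and 572 with the methods' t-test, and 0 and 0 after its adjustment. With 1 array left out, 930 to 971 were higher and 724 to 915 lower. A stricter threshold and a lone array change the counts by construction, and for the other tests the cause was not tested. Acacb was at -0.12 as the mean over its probes, in place of -0.02. The ratio within an array pairs the genotypes already, in limma's test too, and the methods' t-test of channel values leaves this pairing out. No block for the slide could be fitted to 1 slide. Signal near background limits the values of Acaca, Acly, Scd1 and Elovl6.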
